A study of Mus musculus with 3 samples.

Results

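The macrophage and myeloid cell genes were 37 genes, chosen by name as markers of macrophages and of myeloid cells at large, among 12393 genes measured on the array. Earlier results of these data were known when they were chosen. All 37 had at least 1 probe set that the platform annotation assigned to that gene alone, and together they had 55. The gene took its brightest probe set by mean, and the remaining 18 probe sets, of 10 genes, served as a check. The samples were 3 mammary tumours of female NMRI mice of WAP-SVT/t line 8, a line that makes the simian virus 40 T and t antigens in its mammary epithelial cells, under the control of the Wap promoter of milk-producing cells. The study set breast tumours of these mice against human breast tumours, which were not analysed here. Every sample carried the transgene, none had a stated treatment, no other modified allele was named, and the labels state no age. The samples formed 1 group with no normal gland beside it, so the comparison was among tumours, each measured on 1 array. The titles of tumours 1 and 2 begin with the same number, which is not explained, and whether they came from 1 animal is unknown.

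Macrophages are tissue phagocytes that engulf debris, clear immune complexes and present antigen. Their survival depends on the receptor encoded by Csf1r, which binds the growth factors made from Csf1 and Il34, and their identity on the transcription factor PU.1, encoded by Spi1. Mammary tumours of mice and humans commonly hold many macrophages, which can differ in state from tumour to tumour.

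Intensities are the deposited values on a linear scale, with medians of 111 to 120 on the arrays. Levels and differences are on the scale log2(intensity + 50) after quantile normalization, and a fold is computed from a difference of such levels, which understates the differences of dim genes. The low-signal floor is the median of all probe sets, a level of 7.40 or an intensity of 119. A gene lies at or above the floor when its mean level does, which held for 6952 genes and for 33 of the 37 members. Of these 33, 28 were at or above the floor in every tumour, and the other 5 (Spi1, Fcgr1, Il1b, Chil3 and Cd163) passed only through their brighter tumours. The tumour 3 array stood apart in its control probe sets for 18S ribosomal RNA, where the 3′ probe set was 12.7 times the 5′ one, against 0.500 in tumour 1 and 0.397 in tumour 2. The same ratio lay between 0.809 and 1.26 in every tumour for the messenger RNA controls Actb and Gapdh. The part of RNA quality or preparation in the values of tumour 3 was not tested. With 1 array per tumour no difference received a p-value, and the number of arrays limits the precision of every value.

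Of the 37 members, 28 were at or above the floor in every tumour, the macrophage markers Csf1r, Adgre1, Cd68 and Lyz2 among them. Spi1 and Cx3cr1 were not. The members as a set were lowest in tumour 3. That tumour had 31 of the 37 members at their lowest level, against 41.0% of all genes on the array and 44.2% of genes at or above the floor. Highest and lowest tumour were at least 2-fold apart for 23 members (62.2% of them), against 17.0% of all genes and 24.8% of genes at or above the floor. In tumour 3, 15 members were at least 2-fold below tumour 1 (5.54% of all genes) and 19 at least 2-fold below tumour 2 (7.18% of all genes). Both applied to 12 members, among 2.95% of all genes and 4.8% of genes at or above the floor. The 12 were Csf1r, Clec4n, Ms4a6d, Fcgr1, Fcgr2b, Fcer1g, Itgb2, Lcp1, Coro1a, Ctss, Cyba and Chil3. In tissue RNA, fewer macrophages and less of each transcript per macrophage cannot be told apart.

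The median member was lower in tumour 3 than in tumour 1 by a difference of -0.88 (log2) and lower than in tumour 2 by -1.01, whereas the median over all genes differed by -0.03 and -0.05. Tumour 2 minus tumour 1 gave a median difference of 0.11 over the members and 0.02 over all genes. Members went both ways, 24 higher in tumour 2 and 13 higher in tumour 1. At least 2-fold higher were 3 in tumour 2 (3.3% of all genes) and 1 in tumour 1 (2.5% of all genes). The order tumour 2, tumour 1, tumour 3 held for 22 members, and the order tumour 1, tumour 2, tumour 3 for 9. The share of all genes in each order was not computed. By the probe sets used, the highest level was in tumour 2 for 22 members and in tumour 1 for 13, beside 37.6% and 30.5% of all genes. The 6 members that were not lowest in tumour 3 were Cx3cr1, Trem2, Cybb and Ms4a7, lowest in tumour 2, and Itgam and Cd163, lowest in tumour 1. Only 2 members, Itgam and Cd163, were highest in tumour 3, beside 31.8% of all genes.

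**Figure D1:**
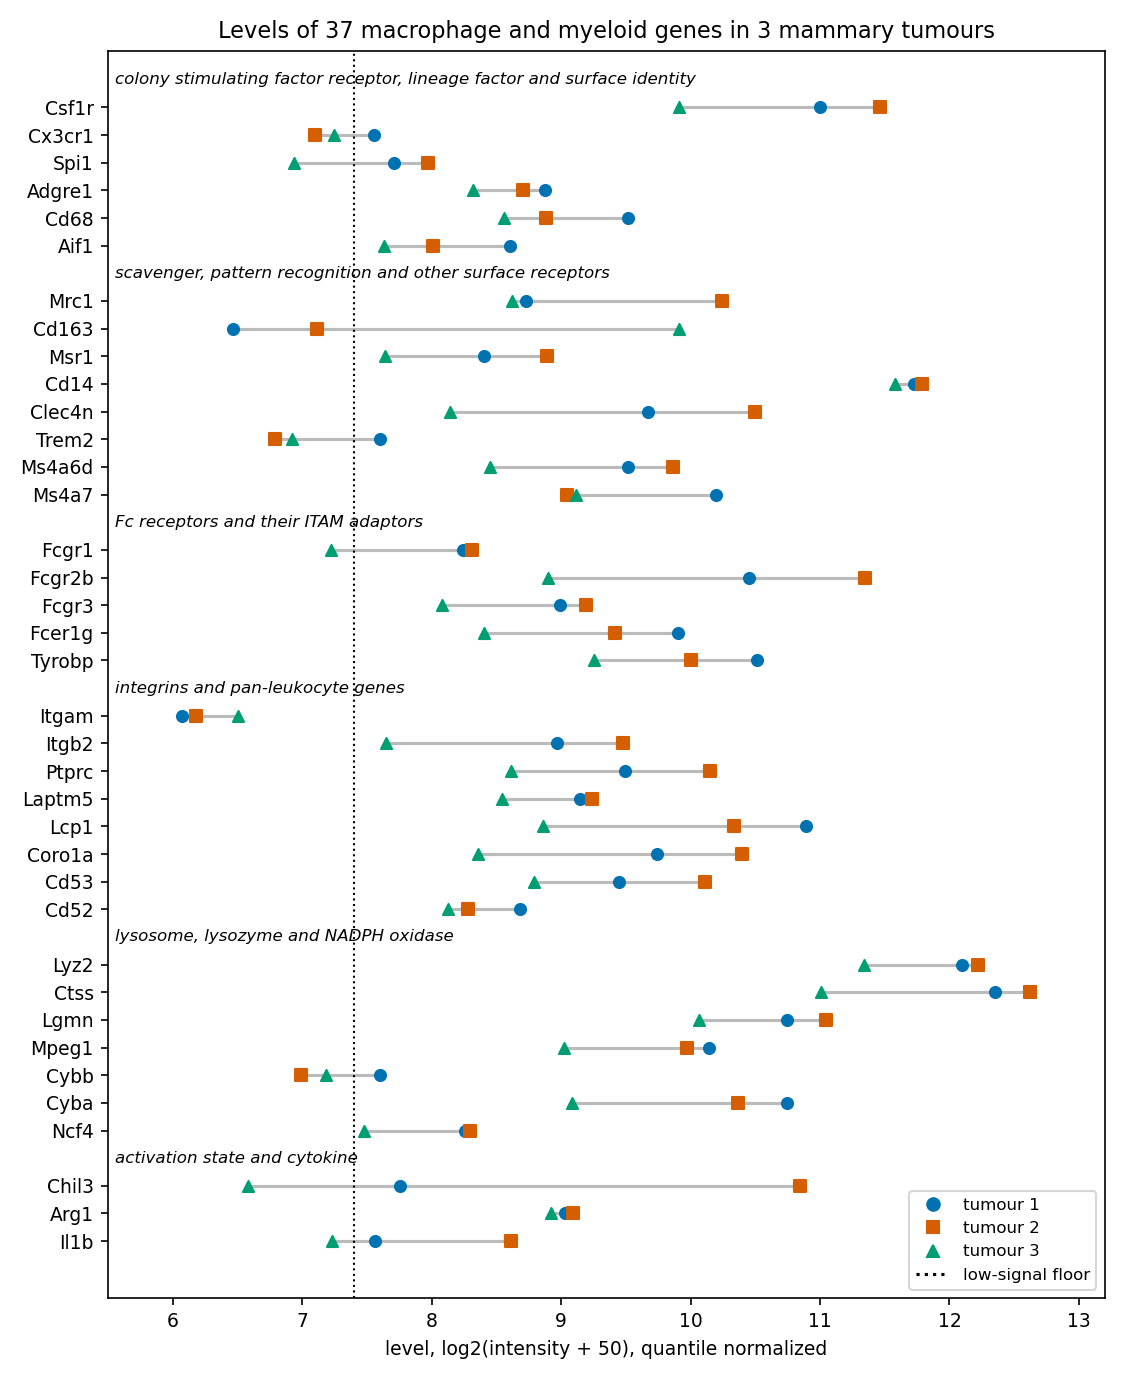
Level of each of the 37 members in each tumour, log2(intensity + 50) after quantile normalization, grouped by role, with a grey line from the lowest to the highest tumour and the low-signal floor as a dotted line. The symbol of tumour 3 lies to the left of both others for 31 members and far to the right for Cd163. Levels of different genes come from different probe sets and are not to be compared with each other.

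Since so many members had their lowest level in the same tumour, the bases before their gene starts are shown for 5 of them. Ctss, Cd53 and Mrc1 were chosen as members lowest in tumour 3 that hold the letters marked, and Chil3 and Cd163 for their wide differences, Chil3 being lowest in tumour 3 as well. Each run is the 250 bases before the annotated gene start in RefSeq, build GRCm38.p6, written 5′ to 3′ on the gene's strand. Ctss lies at chr3:95526536-95526785 on the plus strand, Cd53 at chr3:106790150-106790399 (minus), Mrc1 at chr2:14229164-14229413 (plus), Chil3 at chr3:106167565-106167814 (minus) and Cd163 at chr6:124304401-124304650 (plus). Capitals mark the letters GAGGAA, a core that PU.1 is known to bind, or TTCCTC where it lies on the other strand.
Ctss: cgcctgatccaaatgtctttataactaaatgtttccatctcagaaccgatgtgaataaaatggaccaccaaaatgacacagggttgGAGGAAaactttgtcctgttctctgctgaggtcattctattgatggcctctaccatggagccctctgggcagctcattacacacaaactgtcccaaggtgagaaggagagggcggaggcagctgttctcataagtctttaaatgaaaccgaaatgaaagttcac
Cd53: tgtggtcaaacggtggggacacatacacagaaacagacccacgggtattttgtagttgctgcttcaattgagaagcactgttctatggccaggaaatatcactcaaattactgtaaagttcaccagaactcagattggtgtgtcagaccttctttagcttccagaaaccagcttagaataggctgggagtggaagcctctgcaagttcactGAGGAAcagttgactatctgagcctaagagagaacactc
Mrc1: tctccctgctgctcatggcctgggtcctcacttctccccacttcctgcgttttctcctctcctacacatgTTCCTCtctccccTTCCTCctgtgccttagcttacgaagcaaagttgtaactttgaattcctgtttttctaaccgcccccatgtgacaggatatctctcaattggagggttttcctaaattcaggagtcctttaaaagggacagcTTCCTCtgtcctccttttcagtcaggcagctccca
Chil3: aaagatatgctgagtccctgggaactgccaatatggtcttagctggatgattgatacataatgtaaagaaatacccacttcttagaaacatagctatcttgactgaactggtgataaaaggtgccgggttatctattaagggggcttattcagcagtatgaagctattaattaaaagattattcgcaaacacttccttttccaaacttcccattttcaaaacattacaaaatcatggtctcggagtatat
Cd163: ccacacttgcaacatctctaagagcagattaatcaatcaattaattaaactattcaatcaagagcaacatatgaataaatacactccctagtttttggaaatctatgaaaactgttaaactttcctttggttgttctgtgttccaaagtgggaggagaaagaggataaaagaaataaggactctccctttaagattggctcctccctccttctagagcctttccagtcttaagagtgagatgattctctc

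In that window Ctss held 1 match, Cd53 held 1 and Mrc1 held 3, while these letters were not in the windows of Chil3 and Cd163. Only GAGGAA and a longer form of it were searched, so an unmarked window may still hold other sequences that PU.1 can bind. RefSeq sequences matched 25 of the 37 members, and 11 of these 25 (44.0%) held the 6 letters on either strand, compared with 25.9% of 27025 genes. They were Cd68, Aif1, Mrc1, Trem2, Fcgr1, Fcgr3, Itgam, Ptprc, Laptm5, Cd53 and Ctss, of which Trem2 and Itgam were not lowest in tumour 3. Of the 19 members with a sequence that were lowest in tumour 3, 9 held the letters and 10 did not. The longer form GAGGAAGT, on either strand, was in 0 of the 25 windows and in 2.79% of all genes. A match of letters is a description and not a binding site. The members without a matched sequence were Csf1r, Spi1, Adgre1, Msr1, Cd14, Clec4n, Ms4a6d, Tyrobp, Itgb2, Cd52, Ncf4 and Arg1.

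Of the 6 genes for growth factor receptor, lineage factor and surface identity, 5 were lowest in tumour 3 (41.0% of all genes). Csf1r had intensities of 1935, 2725 and 926 in tumours 1, 2 and 3. Its level was 10.79 ± 0.80 (SD, n = 3), and tumour 3 lay 2.14-fold below tumour 1 and 2.95-fold below tumour 2. The other 2 probe sets of Csf1r were lowest in tumour 3 as well, at 817, 1050 and 301 and at 391, 320 and 192. Spi1 was dim, at 154, 210 and 73, with a 2.06-fold range that was under 2-fold (0.81, log2) with an offset of 100. Adgre1, which encodes the F4/80 antigen of mouse macrophages, differed less than these, at 406, 384 and 264, a 1.46-fold range. The endosomal glycoprotein gene Cd68 was at 663, 440 and 319, and Aif1, which encodes the actin-bundling protein IBA1, at 331, 218 and 146. In both, tumour 1 stood above the others, by 1.95-fold and 1.97-fold over tumour 3. The fractalkine receptor gene Cx3cr1 was below the floor at 133, 90 and 101, so its order has little signal behind it.

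Of 8 genes for scavenger, pattern recognition and other surface receptors, 5 were lowest in tumour 3 (41.0% of all genes). At least 2-fold apart were 6 of the 8 (17.0% of all genes). Clec4n, which encodes the fungal sugar receptor dectin-2, was at 738, 1390 and 226, so that tumour 2 lay 5.12-fold above tumour 3 and tumour 1 2.89-fold above it. With the mean of its probe sets the range of Clec4n was 1.77 (log2) in place of 2.36. The mannose receptor gene Mrc1 was at 363, 1171 and 337. It stood apart in tumour 2, 2.86-fold above tumour 1 and 3.08-fold above tumour 3, with tumours 1 and 3 only 1.08-fold apart. Msr1, a scavenger receptor that takes up modified lipoproteins, was at 281, 443 and 147, a 2.38-fold range. Of its 3 other probe sets, 1, below the floor, did not repeat that direction (132, 90 and 129). With the mean of its probe sets the range of Msr1 was 0.55 (log2). Cd14, the co-receptor for bacterial lipopolysaccharide, hardly differed, at 3251, 3307 and 3185, with a level of 11.70 ± 0.11 (SD, n = 3). The lipid-sensing receptor gene Trem2 was below the floor at 139, 63 and 72.

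The MS4A genes, which encode 4-pass membrane proteins of myeloid cells, did not share an order. Ms4a6d was at 663, 895 and 293, with tumour 3 2.67-fold below tumour 2 and 2.10-fold below tumour 1. Ms4a7 was at 1082, 498 and 500, so that tumour 1 lay 2.22-fold above tumour 2 and 2.12-fold above tumour 3 while tumours 2 and 3 were alike. Ms4a7 was the only member with tumour 1 at least 2-fold above tumour 2, which applied to 2.5% of all genes. With the mean of probe sets the range of Ms4a6d was 0.97 (log2), just under 2-fold.

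Cd163, the receptor that takes up haemoglobin bound to haptoglobin, ran against the other members. Its only probe set had intensities of 36, 92 and 927, so tumours 1 and 2 were below the floor and tumour 3 lay 10.9-fold above tumour 1 and 6.93-fold above tumour 2. The difference from tumour 1 was 3.44 (log2) with the offset of 50, 4.09 with 16 and 2.87 with 100. Cd163 was the only member at least 2-fold above both others in tumour 3, which applied to 1.36% of all genes. Of the 10 nearest genes with a probe set, 5 on each side, 4 were at or above the floor. The adjoining gene Pex5, named after its values were seen, was at 207, 254 and 216, and Clec4n, a member 4 places away, was lowest in tumour 3.

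**Figure D2:**
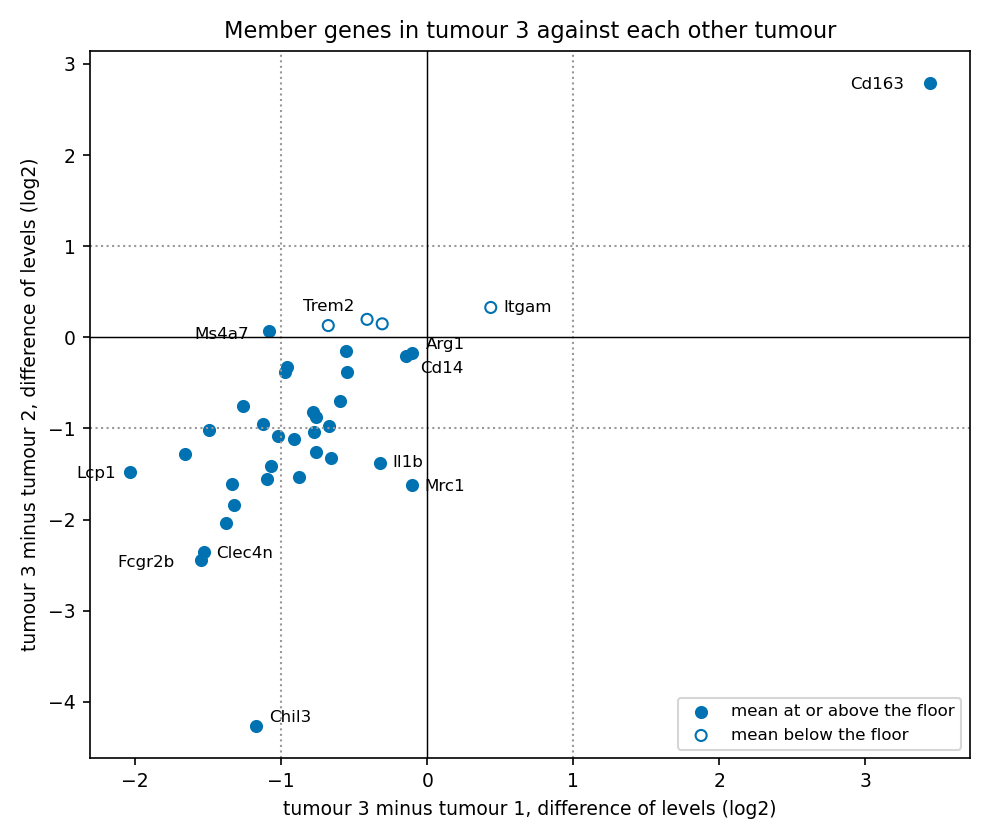
Difference of levels (log2) of each member between tumour 3 and tumour 1 (horizontal) and between tumour 3 and tumour 2 (vertical), with dotted lines at a 2-fold difference and open circles for the 4 members whose mean was below the floor. Most members lie in the lower left, below 0 on both axes, with 12 past the dotted lines there. Cd163 is the one member past the dotted lines at the upper right, Itgam, below the floor, is the other above 0 on both axes, and Chil3 lies lowest.

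All 5 genes for Fc receptors and their adaptors were lowest in tumour 3 (41.0% of all genes) and at least 2-fold apart (17.0% of all genes). Fc receptors bind antibody in immune complexes, Fcgr1 and Fcgr3 as activating receptors and Fcgr2b as the inhibitory one. Fcgr2b had intensities of 1299, 2505 and 423, with tumour 2 5.45-fold above tumour 3 and tumour 1 2.93-fold above it. Its 3 other probe sets had the same order, and in each tumour 3 was between 271 and 309. Fcgr3 was at 445, 557 and 215, and Fcgr1 at 247, 281 and 99, with ranges of 2.16-fold and 2.12-fold. With an offset of 100 these ranges were just under 2-fold, at 0.99 and 0.88 (log2). The inhibitory receptor thus had a wider range on this scale than either activating receptor.

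The adaptor genes Fcer1g and Tyrobp encode short membrane proteins that carry the signal of Fc receptors, of Trem2 and of other receptors without a signalling tail of their own. Fcer1g was at 877, 658 and 282, 2.82-fold below tumour 1 and 2.02-fold below tumour 2 in tumour 3. Tyrobp was at 1362, 989 and 555, 2.40-fold and 1.69-fold below. Both adaptors were highest in tumour 1, whereas the 3 Fc receptor genes were highest in tumour 2.

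Genes of integrins and of leukocytes in general, which lymphocytes also express, were lowest in tumour 3 for 7 of 8 (41.0% of all genes). Ptprc, which encodes the leukocyte phosphatase CD45, was at 653, 1101 and 335, with a level of 9.42 ± 0.77 (SD, n = 3) and tumour 3 1.84-fold below tumour 1 and 2.90-fold below tumour 2. The integrin chain gene Itgb2 was at 437, 687 and 148, a 3.57-fold range. Its partner chain gene Itgam was below the floor in every tumour, at 16, 23 and 42, so that this probe set gave no usable value for CD11b. The actin-bundling gene Lcp1 was at 1794, 1252 and 407 and differed most from tumour 1 to tumour 3 among members lowest in tumour 3, by 4.09-fold. Its second probe set had the same order, at 1015, 562 and 220. Coro1a, which encodes the actin regulator coronin 1A, was at 779, 1305 and 272, a 4.11-fold range. That range rested on suffixed probe sets (with a letter before the ending of the ID), and the only other one, with intensities of 10, 15 and 9, gave 0.13 (log2). The mean of its probe sets gave 1.11.

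With the probe sets used, Cd53, Laptm5 and Cd52 differed less than Ptprc, Itgb2, Lcp1 and Coro1a. The tetraspanin gene Cd53 was at 632, 1064 and 385, a 2.50-fold range. Laptm5, of the lysosomal membrane, was at 499, 576 and 317, a 1.62-fold range that widened to 1.23 (log2) with the mean of its probe sets. Its other probe sets differed more, at 801, 569 and 157 (a range of 2.07, log2) and, below the floor, at 183, 194 and 36 (1.49). Cd52 was at 351, 274 and 224, a 1.47-fold range.

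Among 7 genes for lysosome, lysozyme and the phagocyte NADPH oxidase, 6 were lowest in tumour 3 (41.0% of all genes). Ctss, a lysosomal protease that processes antigen for class II molecules, was at 5083, 5810 and 2123, with tumour 3 2.53-fold below tumour 1 and 3.05-fold below tumour 2. Lyz2, the lysozyme of macrophages, was at 4223, 4433 and 2700, a 1.84-fold range. The lysosomal protease gene Lgmn was at 1621, 2013 and 1048 and the pore-forming gene Mpeg1 at 1043, 965 and 465, with ranges of 1.97-fold and 2.18-fold. The NADPH oxidase makes superoxide to kill microbes. Its membrane subunit gene Cyba was at 1625, 1271 and 489, 3.16-fold and 2.43-fold above tumour 3 in tumours 1 and 2. Its cytosolic subunit gene Ncf4 was at 250, 278 and 127, a 1.76-fold range, and its catalytic subunit gene Cybb was below the floor at 139, 80 and 96. Cyba and Ncf4 thus shared the lowest tumour and differed in order only between tumours 1 and 2, where Ncf4 was 1.03-fold apart. Cybb was lowest in tumour 2, with the caveat of its low signal.

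The genes for activation state and cytokine were highest in tumour 2. Chil3, a chitinase-like protein of alternatively activated macrophages that neutrophils also make, had the widest range of the members. Its intensities were 161, 1763 and 47, so that tumour 2 lay 8.52-fold above tumour 1 and 19.2-fold above tumour 3. Tumour 3 was below the floor, so that the size of the fold depends on the offset. The range was 4.26 (log2) with the offset of 50, 4.87 with 16 and 3.70 with 100. Il1b, which encodes the inflammatory cytokine interleukin-1 beta, was at 134, 356 and 100, with tumour 2 2.07-fold and 2.60-fold above tumours 1 and 3. Together with Mrc1, Chil3 and Il1b were the 3 members with tumour 2 at least 2-fold above tumour 1, against 3.3% of all genes. Arg1, the arginase often used beside Chil3 and Mrc1 as a marker of alternative activation, did not follow them, at 456, 517 and 429, a 1.13-fold range.

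Neutrophil genes stood higher in tumour 2 beside Chil3. Of 10 neutrophil genes on the array, 8 were highest in tumour 2 (37.6% of all genes) and 4 were at least 2-fold above tumour 1 there (3.3% of all genes). By their means 7 of the 10 were below the floor, among them Ngp and Mmp8 of these 4. S100a8, which encodes a calcium-binding protein of neutrophils and monocytes, was at 526, 1296 and 171, and S100a9, its partner, at 342, 1022 and 141. Ngp, a granule protein gene named after its values were seen, was at 30, 472 and 26. The primary granule genes Mpo and Elane were at 30 or less in every tumour. The lactoferrin gene Ltf, which mammary epithelium also expresses, had another order, at 2142, 584 and 577. The summed normalized intensity of the list was 3289, 3688 and 1057. The part of neutrophils in the values of Chil3 was not tested.

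**Figure D3:**
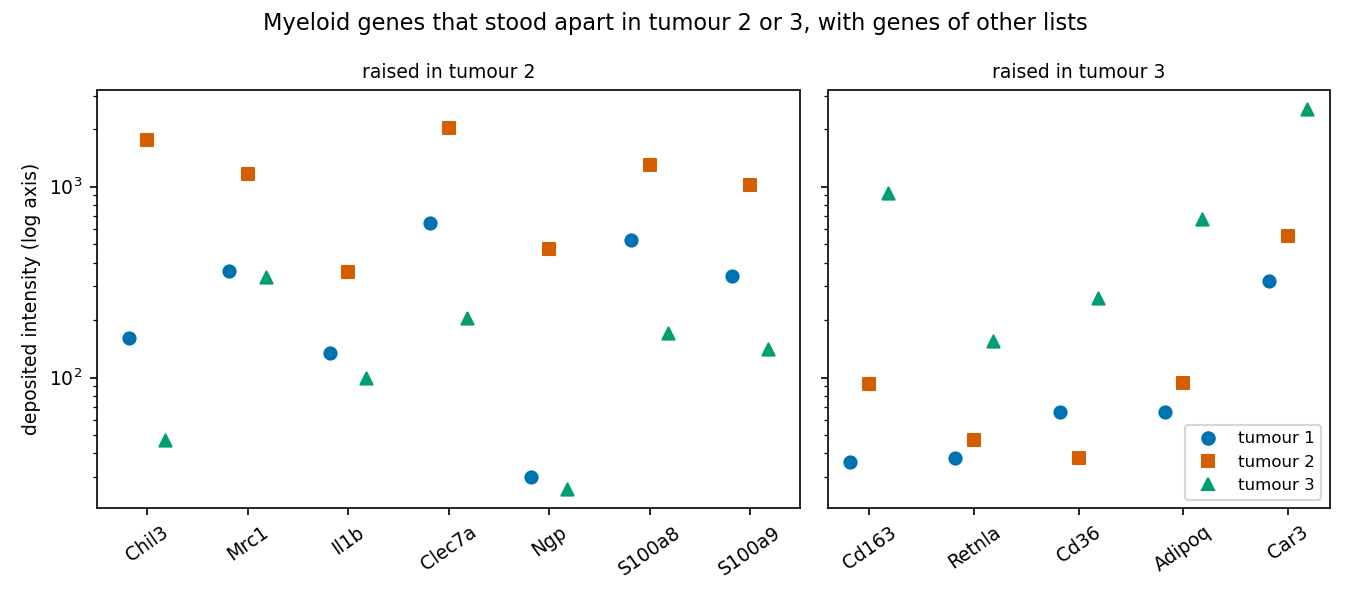
Deposited intensity (log axis) in each tumour of members that stood apart in tumour 2 (left) or tumour 3 (right), beside genes of the macrophage, neutrophil and adipocyte lists, chosen after their values were seen. Chil3 reached 1763 in tumour 2 and Cd163 reached 927 in tumour 3.

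Further genes of macrophages, a list of 63 that held none of the members, had the same tumour at the bottom. This list too was chosen with earlier results of these data known, so it is not an independent check. Of the 57 on the array, 39 were lowest in tumour 3 (41.0% of all genes) and 12 were at least 2-fold below both others there (2.95% of all genes). By their means 31 were below the floor. The median differences of tumour 3 were -0.54 from tumour 1 and -0.60 from tumour 2. Clec7a, which encodes the beta-glucan receptor dectin-1, had the widest range among those at or above the floor, at 646, 2022 and 205, with tumour 2 8.16-fold above tumour 3. The apolipoprotein gene Apoe was at 8172, 7178 and 2218, a 3.78-fold range. Among the same genes the lysosomal protease gene Ctsz differed least, at 2963, 2629 and 3108, and which tumour was highest depended on the scaling. The complement genes C1qa and C1qc were 2.83-fold and 3.47-fold lower in tumour 3 than in tumour 1. C1qb, the third chain, was at 2268, 1401 and 1025, a 2.29-fold range. With the mean of its probe sets its difference of tumour 3 was -0.14 (log2) from tumour 1 and turned to 0.36 from tumour 2. Highest in tumour 3 were 6 genes (31.8% of all genes), namely Tlr4, Cd36, Lyve1, Pf4, Hmox1 and Retnla. Of these, Retnla, a secreted protein of alternatively activated macrophages, was at 38, 47 and 156, and the fatty acid receptor gene Cd36, which adipocytes and endothelium also express, at 66, 38 and 261. Both had means below the floor. The difference of Cd36 from tumour 2 was 0.68 (log2) without suffixed probe sets.

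Class II molecules, with which macrophages, dendritic cells and B cells present antigen, followed the members with wider differences. Of 6 genes on the array, 5 were highest in tumour 2 (37.6% of all genes) and lowest in tumour 3 (41.0% of all genes). In tumour 3, 4 were at least 2-fold below both others (2.95% of all genes). The invariant chain gene Cd74 was at 3341, 5195 and 694, with tumour 2 7.49-fold above tumour 3. H2-Ab1 was at 1049, 2380 and 303, a 6.93-fold range, and H2-DMa, which differed least among those at or above the floor, at 201, 344 and 99. The remaining gene, the class II transactivator gene Ciita, was below the floor.

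Ligands that recruit or sustain macrophages showed no common order. Of 14 on the array, 6 were lowest in tumour 3, 6 in tumour 2 and 2 in tumour 1. By their means 8 of the 14 were below the floor, so their orders have little signal behind them. For tumour 3 that share, 42.9%, was close to the 41.0% of all genes. Csf1 was at 302, 167 and 160, a 1.72-fold range in which tumours 2 and 3 were alike, and Il34 was below the floor at 39, 51 and 20. The chemokine gene Ccl5 was at 521, 147 and 70, a 4.95-fold range, and Ccl8 at 438, 191 and 649, highest in tumour 3. The fractalkine gene Cx3cl1 differed least among those at or above the floor, at 261, 289 and 325. The chemokine gene Ccl2, below the floor on average, was at 157, 42 and 134. By the probe sets used, Csf1r was highest in tumour 2 and its ligand gene Csf1 in tumour 1. A dimmer probe set of Csf1r, at 391, 320 and 192, was highest in tumour 1 as well.

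Most lymphocyte and mast cell markers were below the floor. The T cell receptor chain genes Cd3d, Cd3e and Cd3g had intensities of 25 or less, and 16 of 17 T and NK cell genes were below the floor. The exception, Thy1, which fibroblasts also express, was at 634, 551 and 238. Named after their values were seen, the T cell kinase gene Zap70 (105, 247 and 56), the granzyme gene Gzma (20, 156 and 8) and the B cell receptor gene Cd22 (109, 131 and 24) passed the floor in tumour 2 only and were lowest in tumour 3. Of 8 B and plasma cell genes 7 were below the floor and Jchain was at 177, 180 and 144, and of 7 mast cell genes 6 were below it, all but Kit, which mammary epithelium also expresses. Kit was at 1388, 1325 and 2287. Of 7 dendritic cell genes, Batf3 and Itgax were at or above the floor. Itgax, which encodes CD11c and which macrophages also express, was at 250, 329 and 55, and Batf3 was at 139, 224 and 157. The summed normalized intensities in tumours 1, 2 and 3 were 1064, 1229 and 478 for T and NK cell genes and 374, 376 and 246 for B and plasma cell genes. They were 512, 624 and 297 for dendritic cell genes and 1596, 1395 and 2278 for mast cell genes. The mast cell sum includes Kit, and the T and NK cell sum includes Thy1, each the only gene of its list at or above the floor. Of the 7 mast cell genes 5 were lowest in tumour 2 (29.1% of all genes).

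Between tumour 3 and either other tumour, the median markers of epithelium, fibroblasts and endothelium differed by less than the median member, and those of adipocytes by more. By their means 4 of the 8 endothelial genes were below the floor, and this scale understates the differences of dim genes. Between tumours 2 and 1 the median differences were 0.38 for fibroblasts and 0.29 for endothelium, above the 0.11 of the members. The epithelial genes Krt8, Krt18 and Epcam had intensities of at least 4156 in every tumour, so epithelium, the labelled tumour tissue, was well represented. The median difference of 9 epithelial genes between tumour 3 and tumour 1 was -0.46. Within that list Krt18 was within 1.20-fold over the tumours, while the tight-junction gene Cldn4 was at 1788, 669 and 111 and Krt7 at 774, 2065 and 563. Of 8 fibroblast genes 5, and of 8 endothelial genes 6, were lowest in tumour 3 (41.0% of all genes). Their median differences from tumour 2 were -0.66 and -0.69. Among fibroblast genes Lum was at 196, 729 and 289, Fap at 210, 350 and 97 and Dcn at 772, 1029 and 831. Among endothelial genes Cdh5 was at 165, 211 and 49, Esam at 161, 318 and 106 and Eng at 266, 288 and 189. Their summed normalized intensities were 12196, 13134 and 9065 for fibroblasts and 1016, 1340 and 687 for endothelium.

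Adipocyte genes were all 6 highest in tumour 3 (31.8% of all genes), the tumour with the highest Cd163. Lep and Cidec were below the floor in every tumour, and Adipoq passed it only through tumour 3. Adiponectin (Adipoq) was at 66, 94 and 678, Car3, a carbonic anhydrase, at 319, 550 and 2539 and the lipase gene Lpl at 243, 233 and 939. Fabp4 was at 424, 304 and 2837, yet without suffixed probe sets its differences of tumour 3 were 0.43 and 0.18 (log2). The summed normalized intensity of the list was 1094, 1150 and 6736, beside 35271, 41399 and 18448 for the 37 members. The part of the adipose content in the values of Cd163 or of the other members was not tested.

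**Figure D4:**
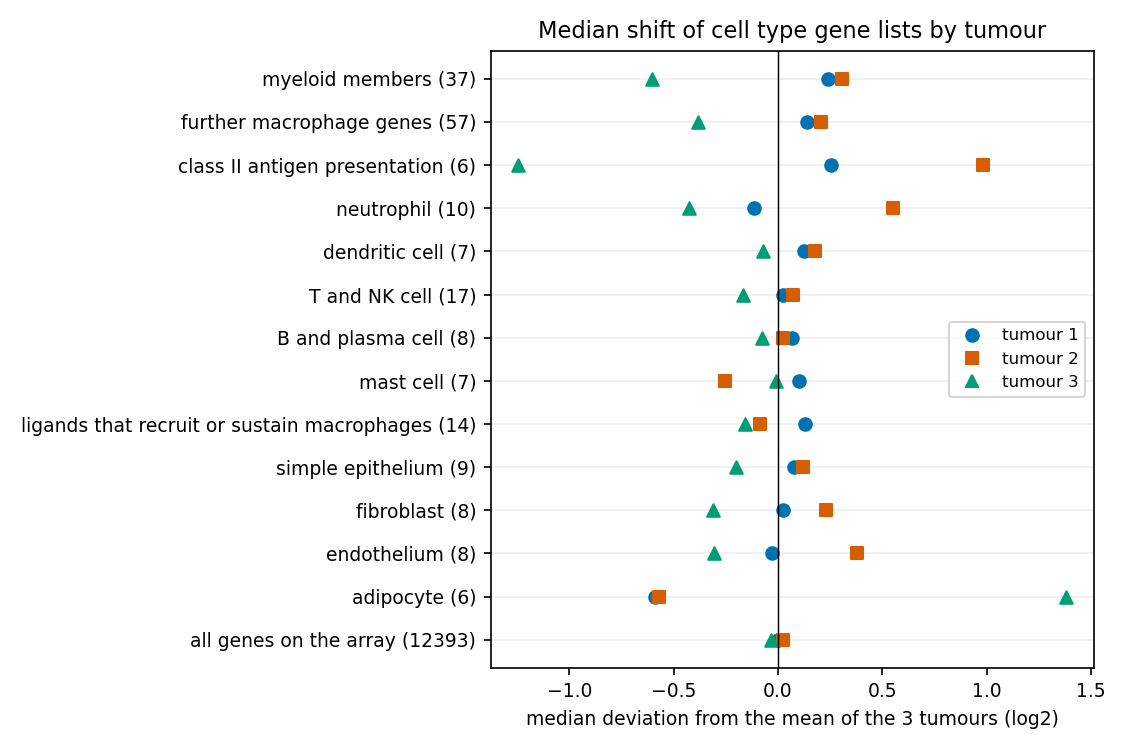
Median deviation of each gene list from the mean of the 3 tumours (log2), 1 symbol per tumour, with the number of genes in brackets. The members lie at 0.24, 0.31 and -0.60 in tumours 1, 2 and 3, all genes lie near 0, and adipocyte genes lie at 1.38 in tumour 3. The sign for tumour 2 of simple epithelium and for tumour 1 of fibroblasts turned under other scalings.

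The additional probe sets of the members mostly had the same lowest tumour. Of 18, 17 were lowest in the same tumour as the probe set used, and all 11 at or above the floor were among these. The exception was the dim probe set of Msr1 given above. The highest tumour and the size of the range were not always shared. A dimmer probe set of Csf1r and the other probe sets of Laptm5 had their highest level in tumour 1, not in tumour 2. For 27 members a single probe set was the only measurement, Cd163, Chil3, Mrc1, Ctss, Tyrobp and Ptprc among them.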

How the data were processed

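Total RNA of each tumour was extracted with RNAzol and made into biotinylated cRNA, per the labels' protocols, and 1 array was measured for each of 3 tumours. The authors deposited 1 intensity per probe set and array, as whole numbers on a linear scale. Summarisation, background subtraction, scaling and software were not given in the sources used here. Of 22690 probe sets, 64 controls were left out. The platform annotation named 1 gene for 20380 of the other 22626, several for 691 and none for 1555, and probe sets with several genes named none.

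An offset of 50 was added, log2 taken and the arrays quantile normalized, since their trimmed means (2% cut from each end) differed by up to 5.38%. A gene took its brightest probe set by mean. Counts over the members used no low-signal filter. The members and lists, with 12 lists of 173 genes beside the members (157 on the array), were chosen with earlier results of these data known. Named genes were every member and, in each other list, the 2 genes of widest and the 1 of narrowest range at or above the floor. Others were named after their values were seen. The steps were tested on simulated data. Python 3.11.15, numpy 2.4.6, pandas 2.3.3 and matplotlib 3.10.9 were used. Alternatives were other scalings, offsets of 16 and 100, a low-signal filter, other choices of probe set and leaving out each tumour. The longer promoter motif and the flanking genes were added after seeing the data.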

Additional observations from a re-analysis of the deposited data

How the results depend on the processing

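The same 31 members were lowest in tumour 3 with intensities as deposited, with array medians subtracted and with probe sets averaged per gene. Offsets of 16 and 100 and the filter on low signal also gave these 31, but had little room to differ. With quantile normalization an offset keeps the ranks of probe sets within an array, and the filter only removes members. Without suffixed probe sets 8 members lost their value, and 23 of the remaining 29 were lowest there. With intensities as deposited, array medians subtracted, offsets, the filter or another choice of probe set, the count of members at least 2-fold apart stayed between 17 and 27. The share of all genes moved with it, to 27.0% with an offset of 16 and 12.1% with an offset of 100. Without tumour 3, 4 members were 2-fold apart (5.78% of all genes), without tumour 2 16 (8.93%) and without tumour 1 20 (10.7%). Over all alternatives, 0 of 284 member values changed sign, 6 fell under 2-fold and 5 reached it. Many of the 284 could not change sign, so the count overstates the stability. The filter left the values it kept as they were, and averaging left the 27 members with 1 probe set unchanged. Offsets keep the ranks within each array. The difference of Cd14 was 0.00 (log2) with array medians subtracted. No paired analysis was possible because all samples form 1 group. Precision is limited by the number of arrays, 1 per tumour, and members below the floor (Cx3cr1, Trem2, Itgam and Cybb) carry little signal.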
